A study of Homo sapiens and Mus musculus with 19 samples.

Results

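SAMSN1, XKR5, ADCYAP1R1, CA8 and FSHR are 5 human genes whose bodies carried far less 5-methylcytosine (5mC) in HepG2 cells than in H1ES cells. They were chosen for this difference, as 5 of 13438 gene bodies measured. Of all these bodies, 7665 held a mean of at least 100 tags per library of 1000 cells, and there the 5 genes took places 1, 2, 4, 5 and 6 in the order of the fall in 5mC. OR56A3, an olfactory receptor gene with a HepG2 minus H1ES difference of -81.9 percentage points, took place 3 and is not among the 5. The smallest difference inside the group was that of FSHR, -81.5 points, and the next genes outside it were GALNT7 and LPAR3, both at -81.4 points. KASH5, TMEM179, SH3GL2 and ANTXRL followed, at -81.2, -80.9, -80.1 and -79.9 points. Because the members were picked on the libraries of 1000 cells, their values there are a description and carry no test.

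The study applied DARESOME, an assay of DNA modification at CCGG sites, to cell lines and to mouse cerebellum, and only the human libraries were used here. HepG2, a liver line labelled as hepatocellular carcinoma, was compared with H1ES, a human embryonic stem cell line. Each line had 2 libraries of 1000 cells and 5 libraries of 1 cell, and the labels give no treatment, passage or culture. The labels do not say whether libraries of a line came from separate cultures, and a p-value below therefore speaks only of the variation among these libraries, possibly technical. With 2 libraries per line, how small a p-value is rests largely on tag counts and a spread shared over genes. Its size is therefore no measure of how surely the lines differ. In the assay, the enzyme HpaII cuts unmethylated CCGG sites, and later digests with MspI give tags to hydroxymethylated (5hmC) and methylated sites. A site's 5mC level is the share of its tags that are of the 5mC kind, and the level of a gene body pools the tags of all its sites, leaving out 1 kb at both ends of the gene.

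In mammals, methyl groups are placed on cytosines of CpG pairs, and the bodies of most genes are methylated while CpG-rich starts stay free. Long blocks of low methylation are known in the genomes of many cancer cells, where they often hold genes that are silent in that tissue. ADCYAP1R1 encodes the receptor of the neuropeptide PACAP, in the brain and pituitary. FSHR encodes the receptor of follicle-stimulating hormone, in the ovary and testis. CA8 encodes a carbonic anhydrase-related protein without catalytic activity, abundant in Purkinje cells of the cerebellum. SAMSN1 encodes an adaptor protein with SAM and SH3 domains, studied in blood cells. XKR5 encodes a membrane protein of the XK-related family, in which some members scramble phospholipids in dying cells.

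The assay reads a promoter only where it holds CCGG, so the promoter sequences show what could be seen. RefSeq sequences of GRCh38.p14, from 250 bases before to 50 bases after a transcription start, were at hand for 3 of the 5 genes. CCGG is in capitals, and each sequence runs 5′ to 3′ on the strand of its gene. Of 35116 promoters in the table, 63.1% held CCGG. The ADCYAP1R1 promoter lies at chr7:31052058-31052357 on the plus strand, and it has a pair of CCGG sites and a GC content of 75.0%. The SAMSN1 promoter shown is that of a start inside the gene, at chr21:14583353-14583652 on the minus strand, which was the only one of 4 SAMSN1 promoters with CCGG. The FSHR promoter lies at chr2:49154466-49154765 on the minus strand and holds no CCGG.
ADCYAP1R1: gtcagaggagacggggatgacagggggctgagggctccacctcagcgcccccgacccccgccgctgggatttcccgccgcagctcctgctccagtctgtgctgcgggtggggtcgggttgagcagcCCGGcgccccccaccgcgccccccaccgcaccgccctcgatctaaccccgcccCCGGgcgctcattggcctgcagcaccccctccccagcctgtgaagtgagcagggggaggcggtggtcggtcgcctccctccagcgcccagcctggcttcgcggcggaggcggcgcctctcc
SAMSN1: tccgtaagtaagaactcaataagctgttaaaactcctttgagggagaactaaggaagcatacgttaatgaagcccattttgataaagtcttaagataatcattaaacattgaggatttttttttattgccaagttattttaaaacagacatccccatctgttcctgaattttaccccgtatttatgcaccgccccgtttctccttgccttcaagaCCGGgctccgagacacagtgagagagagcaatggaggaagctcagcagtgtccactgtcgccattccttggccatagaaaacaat
FSHR: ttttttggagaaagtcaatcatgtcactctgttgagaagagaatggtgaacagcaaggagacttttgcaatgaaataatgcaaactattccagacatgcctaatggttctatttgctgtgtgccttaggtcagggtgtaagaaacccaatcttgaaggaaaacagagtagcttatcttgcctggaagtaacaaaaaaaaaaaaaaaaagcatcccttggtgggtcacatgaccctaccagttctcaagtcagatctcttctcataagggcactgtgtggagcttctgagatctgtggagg

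The libraries of 1000 cells held 5977422 and 5146348 tags in HepG2, and 6644517 and 4911898 tags in H1ES, with a tag at 51.6% to 53.7% of 2317745 sites. Genome-wide, 5mC made up 60.6% and 61.7% of autosomal tags in HepG2, against 93.6% and 94.2% in H1ES. HepG2 cells 3 and 5 stood apart from the other single cells of their line. They held 2455908 and 2434482 tags, whereas HepG2 cells 1, 2 and 4 held 526207 to 611318 and the H1ES cells 757767 to 1543724. As a check of the lines, the starts of embryonic stem cell marker genes were over 50% unmethylated in 0 of 6 measured cases in HepG2 and in 5 of 6 in H1ES. For hepatocyte markers the counts were 3 of 6 in HepG2 and 1 of 6 in H1ES, and no site was measured at ALB and AFP, which define hepatocytes and fetal liver. For blood markers they were 2 of 2 in HepG2 and 1 of 2 in H1ES, and for fibroblast markers 2 of 4 in both lines, so these starts do not set the lines apart. Over all 13438 gene bodies, edgeR called 54.9% lower and 2.49% higher in HepG2 at an adjusted p under 0.05. Both HepG2 libraries lay below both H1ES libraries at 67.0% of gene bodies.

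ADCYAP1R1 spans chr7:31052308-31111474 and held 63 CCGG sites in its body. Its 5mC level was 16.4% and 13.3% in HepG2 (201 and 173 tags), against 95.7% and 97.6% in H1ES (322 and 205 tags). The 2 HepG2 libraries lay close together and far from H1ES, with means of 14.9% ± 2.21 in HepG2 and 96.6% ± 1.35 in H1ES (SD, n = 2 each), a difference of -81.8 points. FSHR spans chr2:48962157-49154515, with 56 sites. Its level was 12.95% and 22.8% in HepG2 (193 and 158 tags), against 100% and 98.8% in H1ES (176 and 161 tags). The HepG2 libraries of FSHR were 1 of the 2 widest pairs, with means of 17.9% ± 6.95 in HepG2 and 99.4% ± 0.878 in H1ES and a difference of -81.5 points.

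CA8 spans chr8:60185412-60281400, with 35 sites in its body. Its level was 16.1% and 18.5% in HepG2 (87 and 92 tags), against 98.6% and 99.1% in H1ES (142 and 111 tags). The difference of the means was -81.6 points, with an SD of 1.69 in HepG2 and 0.359 in H1ES. SAMSN1 spans chr21:14485228-14659417, with 58 sites. Its level was 13.6% and 13.3% in HepG2 (118 and 83 tags), against 98.8% and 95.1% in H1ES (162 and 103 tags). This was the widest difference of the 5, at -83.5 points, and the HepG2 libraries nearly coincided.

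XKR5 spans chr8:6808517-6835524 and is the shortest of the 5 genes, with 32 sites in its body. Its level was 17.1% and 6.94% in HepG2 (105 and 72 tags), against 95.2% and 94.6% in H1ES (146 and 111 tags). The HepG2 mean of 12.04% ± 7.21 was the lowest of the 5 and the least certain, and the H1ES mean was 94.9% ± 0.432. Across all tested gene bodies the medians were 87.1% in HepG2 and 97.1% in H1ES, and the median difference was -6.52 points. The 5 bodies were thus near the common level in H1ES and low in HepG2. In HepG2, 158 of 13438 bodies (1.18%) had a mean of 20% or less, and 118 of these were above 90% in H1ES.

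In HepG2, all that was not 5mC in these bodies was unmethylated, since none of 1282 tags was 5hmC, which allows a share of up to 0.234%. Genome-wide the 5hmC share was only 0.221% and 0.277% in the HepG2 libraries, so this limit does not set the bodies apart. In H1ES, 27 of 1639 tags (1.65%) were 5hmC. By gene, the 5hmC share in H1ES was 2.47% in ADCYAP1R1, 2.26% in SAMSN1, 1.95% in XKR5 and 1.19% in CA8. The median over all gene bodies was 1.35% in H1ES. FSHR had 0 of 337 tags in H1ES, which allows up to 0.890%. Intervals and such limits cover counting error only, and the files do not state which column holds 5mC and which 5hmC.

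The genes had no site density or length in common. Per 10 kb, the bodies of FSHR, SAMSN1 and CA8 held 2.94, 3.37 and 3.72 CCGG sites, and only 2.60%, 4.90% and 7.25% of tested genes were sparser. ADCYAP1R1 with 11.02 and XKR5 with 12.8 sites per 10 kb lay near the median of 10.7. FSHR and SAMSN1, of 192359 and 174190 bp, were longer than 89.5% and 87.9% of tested genes, while XKR5, of 27008 bp, was longer than 34.0%.

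**Figure D1:**
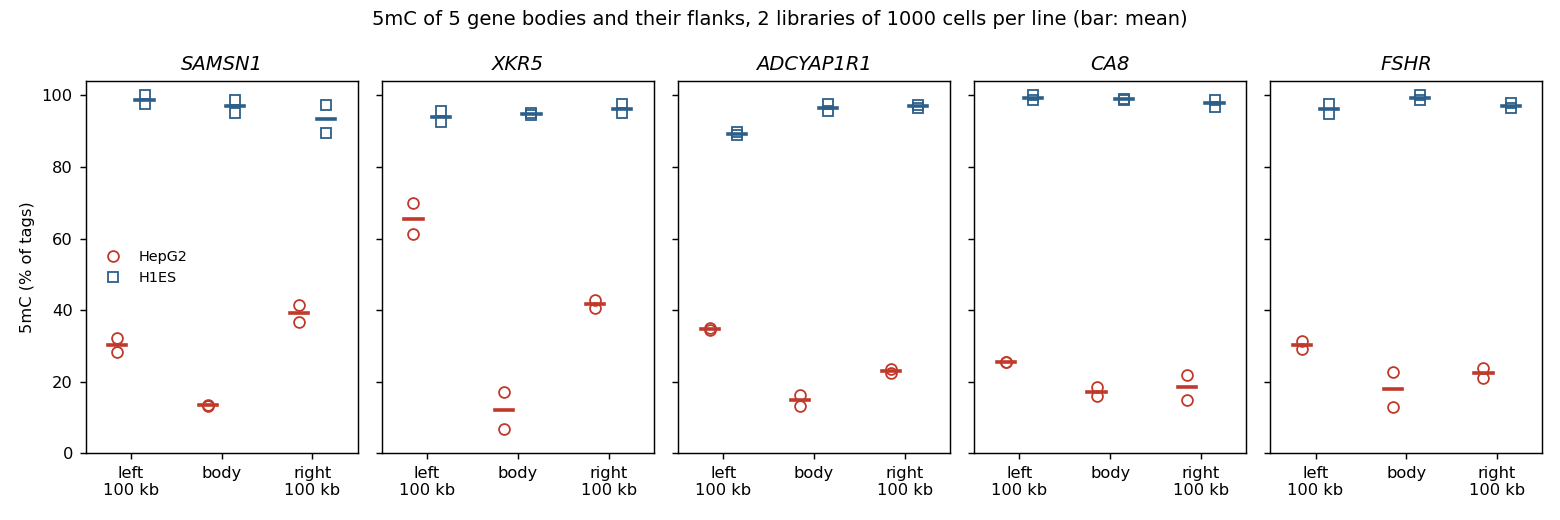
5mC level (percent of tags) of each gene body and of the 100 kb on its left (lower-numbered) and right side, with 1 point per library of 1000 cells and a bar at the mean of 2 libraries, HepG2 as circles and H1ES as squares. HepG2 bodies lie between 6.94% and 22.8%, the HepG2 flanks range up to 69.9% at XKR5, and H1ES stays above 88% everywhere.

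How far the low level reached beyond each gene was read from 100 kb on both sides. With all sites taken, the flanks of CA8 were close to its body. They were 25.4% and 25.6% on the left and 22.0% and 14.9% on the right in HepG2, against 98.7% and 100% on the left and 96.8% and 98.8% on the right in H1ES. The body minus the pooled flanks was -4.53 points in HepG2, about the size of its SD of 4.42 points between the HepG2 libraries. It was -7.66 and -1.41 points in the single HepG2 libraries. Kept to sites with at least 5 tags in every library of 1000 cells, the gap of CA8 was -33.6 points, on 1 body site (19 HepG2 tags) and 5 flank sites (66 HepG2 tags). At FSHR the left flank was 29.2% and 31.3% in HepG2 and 94.7% and 97.5% in H1ES. The right flank of FSHR was 23.8% and 21.2% in HepG2 and 97.9% and 96.4% in H1ES. The body of FSHR minus its flanks was -8.86 points in HepG2, with a body SD of 6.95 points, and -13.7 and -4.02 points in the single libraries.

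With all sites taken, ADCYAP1R1 and SAMSN1 were lower in the body than outside it, and for ADCYAP1R1 this rested on the choice of sites. The left flank of ADCYAP1R1 was 34.9% and 34.3% in HepG2 and 89.7% and 88.9% in H1ES, and its right flank was 23.6% and 22.4% in HepG2 and 96.5% and 97.4% in H1ES. The body of ADCYAP1R1 minus its flanks was -16.1 points in HepG2, but -0.26 points at sites with at least 5 tags in every library, which were 6 in the body (110 HepG2 tags) and 15 in the flanks (234 HepG2 tags). The left flank of SAMSN1 was 28.4% and 32.3% in HepG2 and 100% and 97.7% in H1ES, and its right flank was 36.8% and 41.5% in HepG2 and 89.5% and 97.4% in H1ES. Its body minus the flanks was -20.8 points in HepG2, and -21.2 points at such sites, of which the body had only 1. For both genes and all sites, neither HepG2 library of the body reached a HepG2 flank value.

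XKR5 had the widest gap with all sites taken. Its left flank was 61.2% and 69.9% in HepG2 and 95.5% and 92.7% in H1ES, and its right flank was 42.8% and 40.6% in HepG2 and 94.97% and 97.5% in H1ES. The body minus the flanks was -41.2 points in HepG2, and only 1.23% of 13406 genes with measured flanks had a more negative gap. The corresponding shares were 9.63% for SAMSN1, 13.3% for ADCYAP1R1, 20.3% for FSHR and 25.0% for CA8. In the typical gene the gap ran the other way, with a median body 12.4 points above its flanks in HepG2 and 3.21 points above in H1ES. Among the 158 bodies at 20% or less in HepG2, the median flank was 38.6% and the median gap -24.5 points, so a low body with a higher flank was usual in that class. CA8 had the smallest gap of the 5 with all sites taken, whereas at sites with at least 5 tags in every library the smallest was that of ADCYAP1R1, and XKR5 at -34.4 points lay beside CA8.

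**Figure D2:**
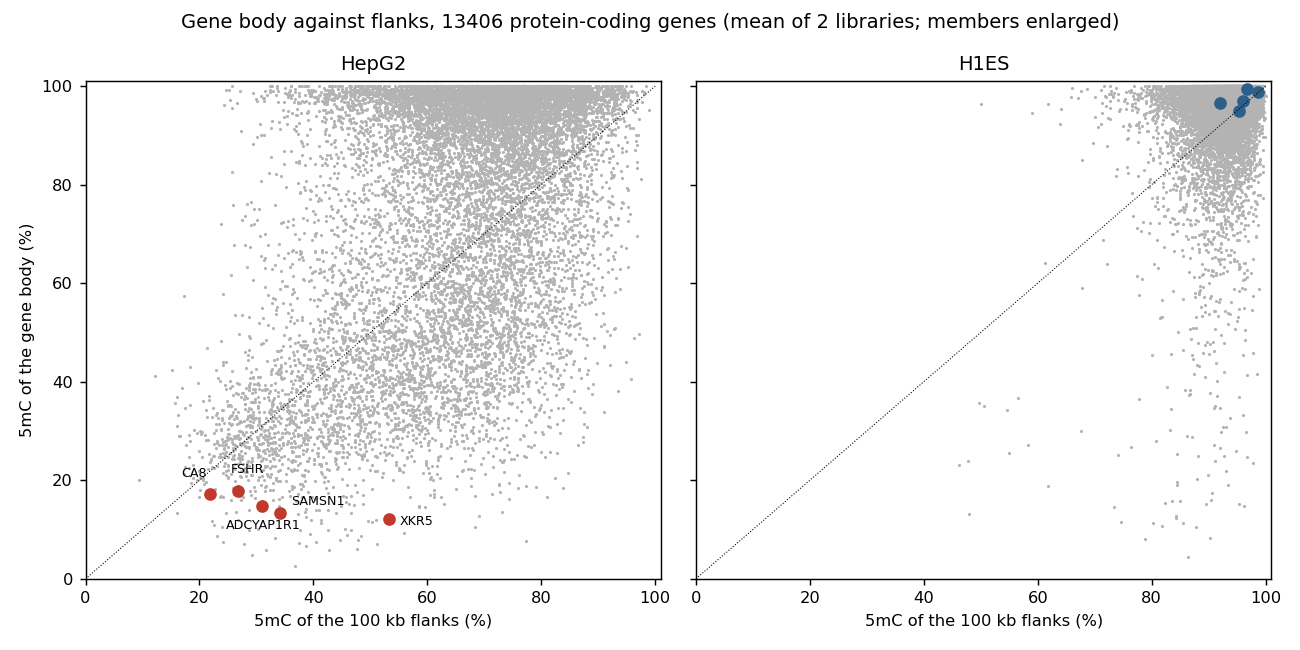
5mC level of the gene body (vertical, percent) against that of its 100 kb flanks (horizontal, percent) for 13406 genes in HepG2 (left) and H1ES (right), as means of 2 libraries of 1000 cells, with the 5 genes enlarged and the dotted line marking equal levels. In HepG2 the 5 genes lie below the line at flank levels of 21.8% (CA8) to 53.3% (XKR5), while in H1ES they lie among the dense group near the top right corner.

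Steps of 20 kb showed where the levels changed. Left of XKR5, the step 80 to 60 kb away was 92.7% in HepG2 and 98.2% in H1ES, and the step 60 to 40 kb away was 98.9% in HepG2 and 98.2% in H1ES. The 2 steps next to the gene were 48.8% and 53.6% in HepG2 and 98.3% and 95.7% in H1ES, and the whole span of XKR5, ends included, was 14.8% in HepG2 and 89.96% in H1ES. From 80 kb away, HepG2 was thus high at first, middle in the 2 steps next to the gene and low only in the gene itself. H1ES stayed high over these steps. The step farthest out, 100 to 80 kb away, was 60.9% in HepG2 and 60.4% in H1ES (46 and 48 tags), lower than the next step in both lines. The 5 right steps of XKR5 ranged over 33.0% to 51.1% in HepG2 and 89.5% to 98.1% in H1ES. The 20 kb before the start of ADCYAP1R1 were lower than its body. They held 2 5mC tags of 89 (2.25%, exact interval 0.273% to 7.88%) in HepG2 and 90 of 113 (79.6%, 71.04% to 86.6%) in H1ES. In H1ES this step also held 10 5hmC tags, 8.85% of its tags.

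Within FSHR, 2 of 10 steps were above the rest in HepG2, both mainly in HepG2 replicate 2. The step from 96.2 to 115.4 kb into the span was 52.0% in HepG2 (25 tags, exact interval 31.3% to 72.2%) and 100% in H1ES (20 tags), with 30% and 66.7% in the HepG2 libraries. The last step was 38.5% in HepG2 (13 tags) and 100% in H1ES (12 tags), with 14.3% and 66.7% in the HepG2 libraries. The other 8 steps were at most 24.1% in HepG2. The first of the raised steps holds the site at position 49067956, which was 78.6% 5mC of 14 tags in HepG2 and 100% of 12 tags in H1ES. In SAMSN1, the first step of the span was 83.3% in HepG2, but it rested on 6 tags.

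**Figure D3:**
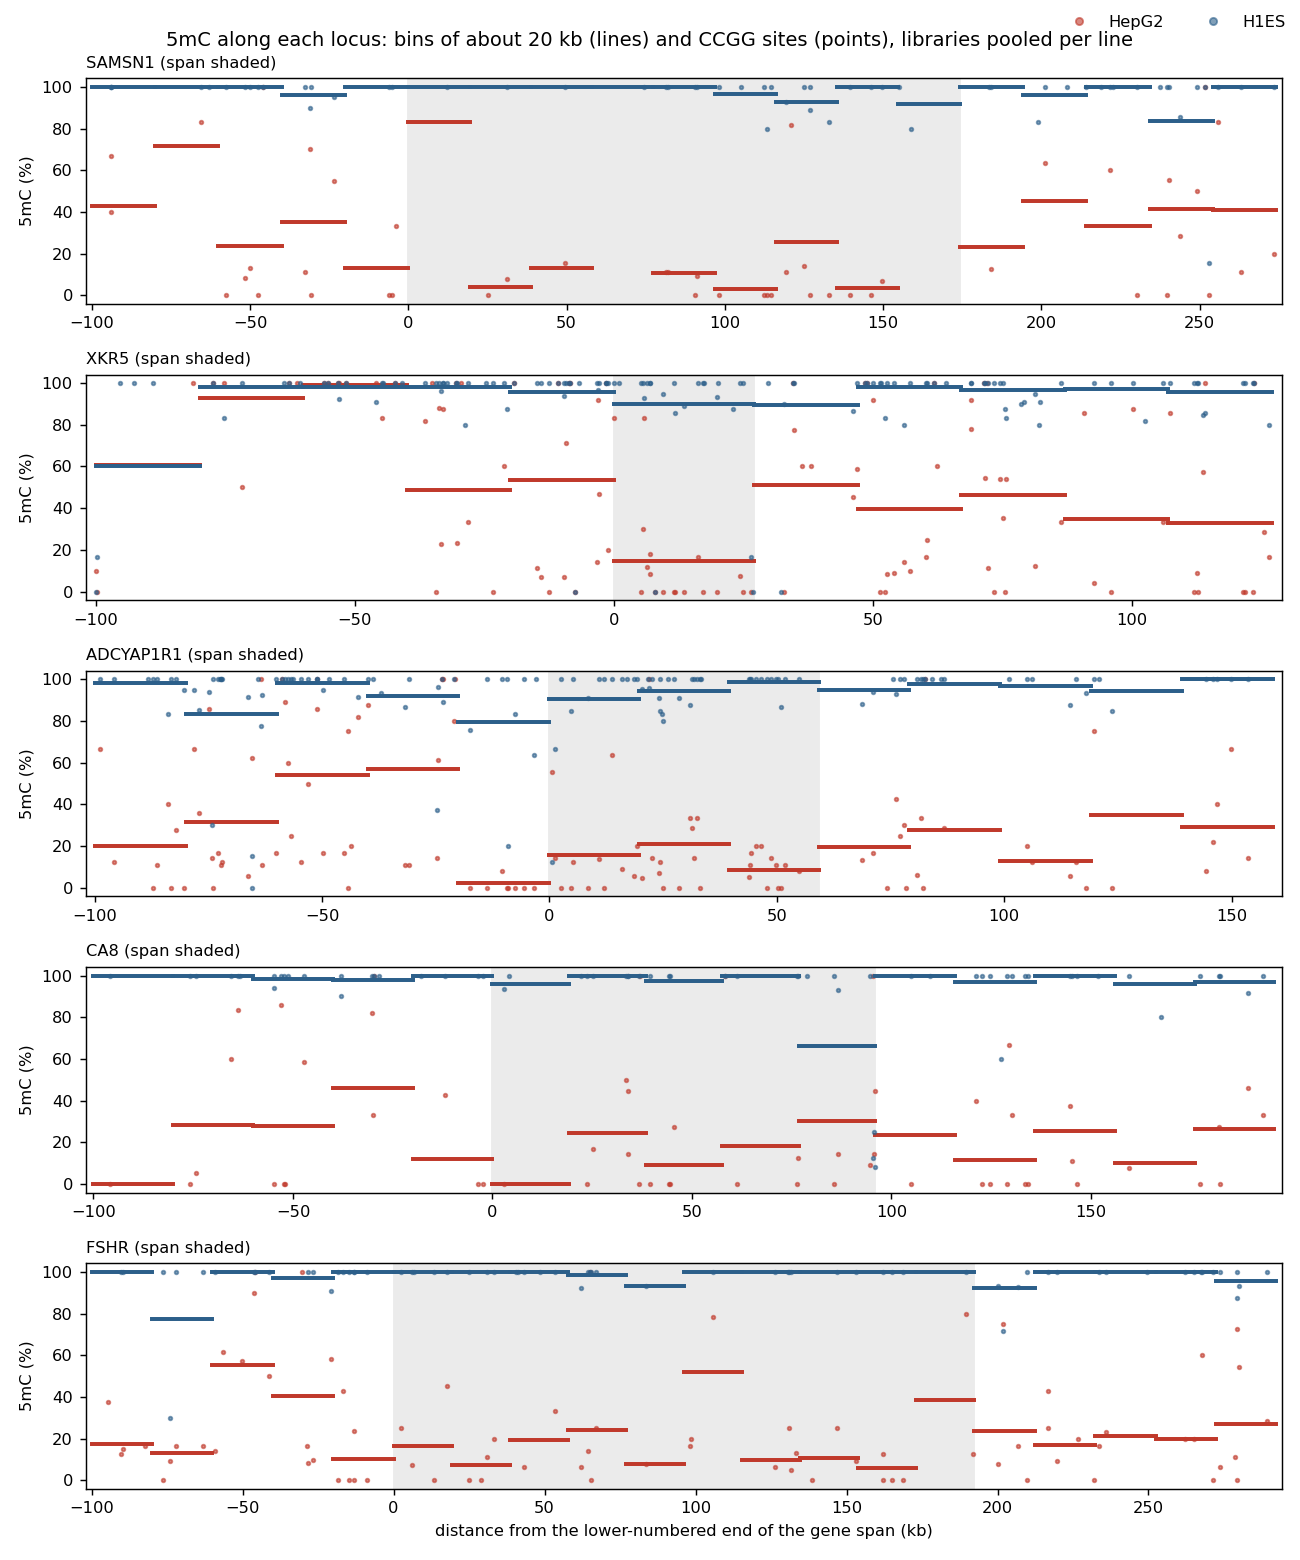
5mC level (percent) along each locus against distance from the lower-numbered end of the gene (kb), with the gene span shaded, lines for steps of about 20 kb and points for single CCGG sites, both with at least 5 tags and with the 2 libraries of 1000 cells pooled, HepG2 in red and H1ES in blue. The lowest H1ES steps are 60.4% at the far left of XKR5 and 66.3% at the right end of CA8, followed by 77.4% left of FSHR and 79.6% just left of ADCYAP1R1. The HepG2 lines are mostly low inside the shaded spans, and just left of ADCYAP1R1 the HepG2 line, at 2.25%, is lower than inside the gene.

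The genes around the 5 bodies showed both outcomes. GHRHR, the receptor of growth hormone-releasing hormone, lies on the left of ADCYAP1R1 and belongs to the same receptor family. Its body was 32.4% and 22.6% in HepG2, against 90.8% and 91.5% in H1ES, and it fell with an adjusted p of 1.63e-23 (edgeR, Benjamini-Hochberg, log2 odds -4.68). AGPAT5, an acyltransferase of phospholipid synthesis at the far left of XKR5, was 95.9% and 98.6% in HepG2, against 98.9% and 98.1% in H1ES. Its groups overlapped, and edgeR gave an adjusted p of 0.549. The other 3 protein-coding neighbours, LOC124901872, DEFB1 and DEFA6, all near XKR5, held too few tags for the test. LOC124901872 had 18.8% and 28.6% in HepG2 (16 and 14 tags), against 96.0% and 100% in H1ES (25 and 21 tags). Both flanks of SAMSN1, CA8 and FSHR held no other protein-coding gene in the RefSeq table.

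Gene starts did not all follow the bodies, and few tags were found there. For XKR5 and CA8 the table gave no strand, and the end richer in CCGG was taken. At that end of CA8, within 1 kb on each side, the level was 43.8% and 77.8% in HepG2 (16 and 9 tags), against 14.3% and 18.2% in H1ES (21 and 11 tags). The HepG2 libraries both lay above H1ES here, opposite to the body. The site at position 60280778 had 100% 5mC of 7 tags in HepG2 and 12.5% of 8 tags in H1ES. Within 2 kb, the means at this end were 45.2% in HepG2 and 42.8% in H1ES, so the difference was nearly gone there.

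At the start of ADCYAP1R1 the level was 42.9% and 33.3% in HepG2 (7 and 6 tags), against 14.3% and 25.0% in H1ES (7 and 4 tags). The pooled intervals, 13.9% to 68.4% in HepG2 and 2.28% to 51.8% in H1ES, overlapped. The CCGG pair of the ADCYAP1R1 promoter printed above, at 124 and 71 bases before the start, had no tag in any library. The end of XKR5 was 10% and 16.7% in HepG2 (10 and 6 tags), against 7.14% and 33.3% in H1ES (14 and 3 tags), and the lines overlapped.

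The start of FSHR had 1 site in reach, at position 49154032 and inside the gene, with 1 5mC tag of 8 in HepG2 and 2 of 2 in H1ES. The upstream start of SAMSN1 had no site in reach. The single CCGG of the SAMSN1 promoter printed above lies 35 bases before the inner start, at position 14583435. It had 0 5mC tags of 7 in HepG2 (exact interval 0% to 41.0%) and 8 of 8 in H1ES (63.1% to 100%). This site lies inside the SAMSN1 body and its tags count in the body level, so its likeness to the body is no separate observation. In H1ES, the ends of CA8 and XKR5 were far below their bodies.

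Single sites showed whether a body was evenly low. With the libraries of a line pooled, 110 body sites of the 5 genes held at least 5 tags in both lines. In HepG2, 91 of them were at 20% or less, 43 of those at 0, while 14 lay between and 5 were at 80% or more. In H1ES, 1 was at 20% or less, 1 between and 108 at 80% or more. In SAMSN1, 17 of 17 sites were low in HepG2. ADCYAP1R1 had 30 of 35 sites low, XKR5 14 of 16 and CA8 14 of 17. FSHR had 16 of 25 sites low and 7 between. With the minimum of 5 tags asked of HepG2 alone, a choice made after seeing the data, 18 of 19 sites were low in SAMSN1, 14 of 19 in CA8 and 22 of 31 in FSHR, and the counts of ADCYAP1R1 and XKR5 were as before. In the flanks, 126 of 247 sites were low, 67 between and 54 high in HepG2, so both of the higher classes took a larger share there than in the bodies.

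A few body sites kept their methylation in HepG2. The site at 31074259 in ADCYAP1R1 was 100% 5mC of 18 tags in HepG2 and 95.8% of 24 tags in H1ES. The site at 49027284 in FSHR was 100% of 9 tags in HepG2 and 100% of 5 tags in H1ES. The site at 60243715 in CA8 was 100% of 5 tags in HepG2 and 100% of 17 tags in H1ES. The other high sites were 6814342 in XKR5, with 83.3% of 6 tags in HepG2 and 92.9% of 14 tags in H1ES, and 49151613 in FSHR, with 80% of 5 tags in HepG2 and 100% of 10 tags in H1ES. With fewer than 5 tags in H1ES, another 2 body sites were also high in HepG2. The site at 14606002 in SAMSN1 was 81.8% of 11 tags in HepG2 and 100% of 4 tags in H1ES, and the site at 60222317 in CA8 was 100% of 6 tags in HepG2 and 100% of 2 tags in H1ES. The remaining 5mC tags in HepG2 were spread unevenly over many positions. Of the body sites with a tag, 10 of 21 in XKR5, 25 of 46 in ADCYAP1R1 and 13 of 26 in CA8 held a 5mC tag. In SAMSN1 these were 16 of 38 and in FSHR 25 of 40. The 3 sites richest in 5mC tags held 56.5% of the 23 in XKR5, 51.8% of the 56 in ADCYAP1R1, 48.4% of the 31 in CA8, 48.1% of the 27 in SAMSN1 and 41.0% of the 61 in FSHR. The part of uneven tag depth in these shares was not tested. The reverse case was the site at 6816418 in XKR5, with 0% of 9 tags in HepG2 and 0% of 7 tags in H1ES.

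The single cells were not used to choose the genes or these sites. At body sites low in the HepG2 libraries of 1000 cells, 52 of 476 tags of HepG2 cells were 5mC (10.9%, exact interval 8.27% to 14.1%). At body sites between the classes the share was 27 of 67 tags (40.3%, 28.5% to 53.0%), and at the high ones 14 of 21 (66.7%, 43.03% to 85.4%). The order of the site classes was the same in the cells, and the high class was above the low one beyond counting error. At the site 31074259 in ADCYAP1R1, 4 of 6 tags from HepG2 cells were 5mC, at 49027284 in FSHR 4 of 5 and at 14606002 in SAMSN1 4 of 4.

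With 1 cell in each of these libraries and no culture stated, the lines were not tested against each other here. Over the 5 bodies together, 5mC was 17.9%, 15.7%, 14.9%, 15.3% and 22.7% in HepG2 cells 1 to 5 (56, 70, 303, 59 and 251 tags). It was 98.5%, 97.1%, 97.5%, 97.6% and 94.2% in H1ES cells 1 to 5 (136, 170, 121, 209 and 104 tags). The cells of each line lay near its libraries of 1000 cells, which pooled to 15.4% in HepG2 and 97.3% in H1ES. All 5 HepG2 cells pooled to 132 of 739 tags (17.9%, exact interval 15.2% to 20.8%), and the H1ES cells to 719 of 740 (97.2%, 95.7% to 98.2%). Without the deep HepG2 cells 3 and 5, the pooled HepG2 level was 16.2% (185 tags, 11.2% to 22.3%).

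By gene, the pooled HepG2 cells held 16.9% in SAMSN1, 16.97% in FSHR, 17.6% in ADCYAP1R1, 19.4% in XKR5 and 20.4% in CA8. The pooled H1ES cells held 98.1%, 98.8%, 97.0%, 95.4% and 95.7% in the same order. Without HepG2 cells 3 and 5, the HepG2 values were 19.4%, 15.7%, 18.9%, 7.41% and 16.7%. XKR5 rested most on those cells, since its level was 24.2% (66 tags) in cells 3 and 5 together and 7.41% (27 tags) in cells 1, 2 and 4, with overlapping intervals of 14.5% to 36.4% and 0.91% to 24.3%. Among 13272 gene bodies with at least 20 tags in the pooled cells of each line, the HepG2 level was lower than in SAMSN1 for only 0.399% and lower than in CA8 for 0.844%. The medians over these bodies were 87.2% in HepG2 cells and 97.0% in H1ES cells.

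Between single HepG2 cells the spread was wide where tags were few. ADCYAP1R1 was 35.3%, 13.04%, 10.7%, 7.69% and 24.6% in HepG2 cells 1 to 5 (17, 23, 75, 13 and 65 tags), and 91.4% to 100% in H1ES cells, with a median of 98.0%. FSHR was 27.3%, 16.7%, 11.7%, 9.09% and 24.7% in HepG2 cells 1 to 5 (11, 18, 94, 22 and 73 tags), and 96.0% to 100% in H1ES cells. In both receptor genes, cells 1 and 5 were the highest and cell 4 the lowest, but the exact intervals of all 5 cells overlapped.

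CA8 was 8.33%, 0%, 23.3%, 50% and 18.8% in HepG2 cells 1 to 5 (12, 2, 43, 4 and 32 tags), and 83.3% to 100% in H1ES cells. SAMSN1 was 0%, 23.5%, 5.77%, 23.1% and 25.9% in HepG2 cells 1 to 5 (6, 17, 52, 13 and 54 tags), and 95% to 100% in H1ES cells. XKR5 was 0%, 10%, 33.3%, 14.3% and 11.1% in HepG2 cells 1 to 5 (10, 10, 39, 7 and 27 tags), and 88.5% to 100% in H1ES cells. In each of the 5 genes every HepG2 cell lay below every H1ES cell, which held for 36.6% of 13106 gene bodies with a tag in all 10 cells. Between the deep HepG2 cells, SAMSN1 was lower in cell 3, with 3 5mC tags of 52, than in cell 5, with 14 of 54, whereas XKR5 was higher in cell 3, with 13 of 39, than in cell 5, with 3 of 27. The exact intervals of cells 3 and 5 overlapped in both genes.

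**Figure D4:**
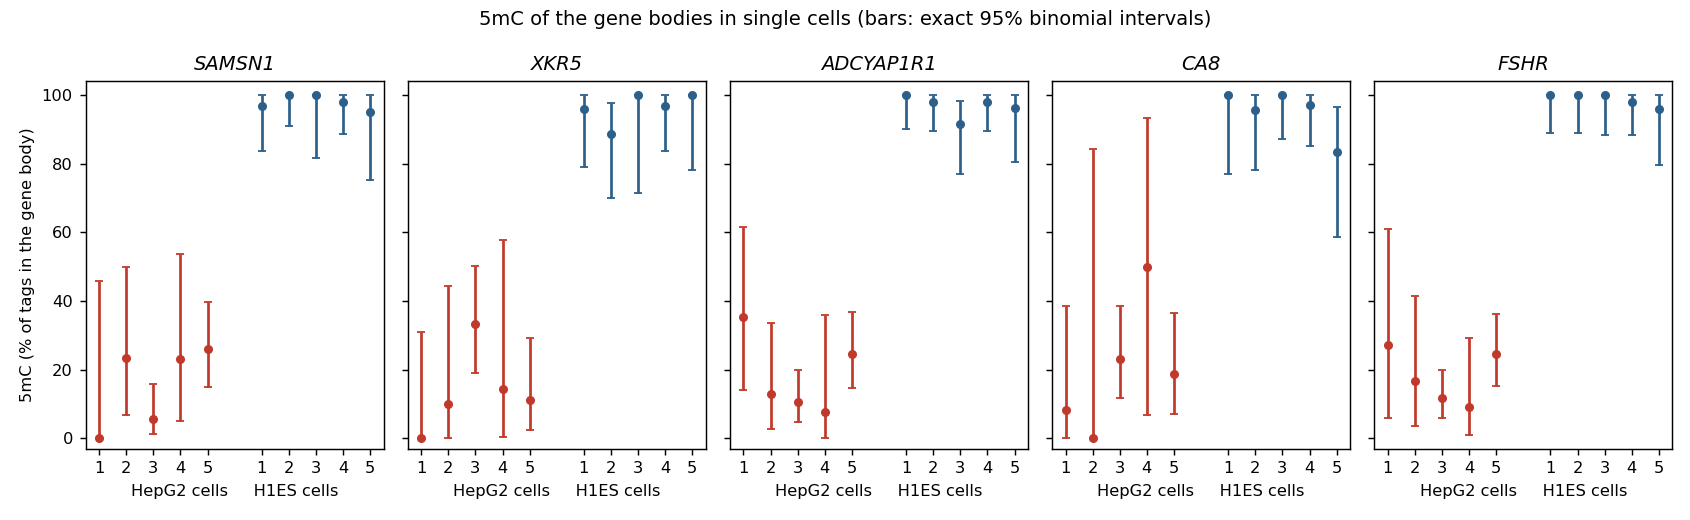
5mC level (percent of tags) of each gene body in HepG2 cells 1 to 5 (red) and H1ES cells 1 to 5 (blue), with exact 95% binomial intervals, which cover counting error only. No HepG2 cell reaches an H1ES cell in any gene. The long bars, such as that of CA8 in HepG2 cell 2, come with as few as 2 tags.

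In the flanks, the pooled HepG2 cells also lay near their libraries of 1000 cells. They held 29.0% at CA8, 27.0% at FSHR, 33.0% at SAMSN1, 35.6% at ADCYAP1R1 and 53.6% at XKR5, against 97.3%, 96.8%, 97.7%, 92.2% and 92.4% in H1ES cells. Over all 5 genes the flank level was 39.3% in HepG2 cells (1749 tags, exact interval 36.98% to 41.6%) and 94.1% in H1ES cells (1588 tags, 92.9% to 95.2%). The pooled body level of 17.9% in HepG2 cells lay below this interval, but XKR5 gave 593 of the 1749 flank tags and only 93 of the 739 body tags. By gene, the intervals of body and flanks in HepG2 cells were apart at SAMSN1 (11.1% to 24.1% and 26.4% to 40.1%), ADCYAP1R1 (12.5% to 23.7% and 31.3% to 40.01%) and XKR5 (11.9% to 28.9% and 49.5% to 57.7%). They overlapped at CA8 (12.8% to 30.1% and 22.9% to 35.7%) and only narrowly at FSHR (12.2% to 22.6% and 21.8% to 32.7%). Such overlap does not show that body and flanks were equal, and the difference was not tested. Without HepG2 cells 3 and 5, the flank level was 41.3% and the body level 16.2%.

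A site with several tags in 1 cell can carry both kinds, since a cell holds more than one copy of a chromosome. In HepG2 cells 3 and 5, 19 of 84 body sites (22.6%) and 25 of 73 (34.2%) with at least 2 tags held both unmethylated and 5mC tags. Genome-wide the shares were 26.2% in HepG2 cell 3 and 29.2% in HepG2 cell 5, inside the exact intervals of the shares in the bodies, 14.2% to 33.05% and 23.5% to 46.3%. HepG2 cells 1, 2 and 4 had only 3, 8 and 9 such body sites, and genome-wide shares of 18.8% to 19.3%. In H1ES cells the genome-wide shares were 2.58% to 3.60%. The deeper libraries held more tags per site, and their part in these shares was not tested. The share of sites with both kinds can also vary with the 5mC level, so bodies and genome are not compared like for like. In HepG2 cells 3 and 5, 5mC was 14.9% and 22.7% in the bodies and 59.3% and 63.1% of autosomal tags genome-wide.

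Relatives of the 5 genes were tested in the libraries of 1000 cells. Of 42 relatives, 32 had enough tags, and edgeR called 28 lower and 0 higher in HepG2 and left 4 uncalled (adjusted p under 0.05, Benjamini-Hochberg over all gene bodies), beside 54.9% lower and 2.49% higher over all gene bodies. At an unadjusted p under 0.05, edgeR had 1 relative higher, CA13, with 100% in both HepG2 libraries against 98.8% and 96.04% in H1ES, and among the other tools limma called it higher and DESeq2 called 0. Over all gene bodies the shift was downward in HepG2, with a median log2 odds of -1.94. The same fit was also made relative to the odds of each library, summed over all tested gene bodies and not the genome. This setting, named relative to each library below, moved the median log2 odds to 0.87. It called 18 of the relatives lower and 6 higher, beside 24.5% lower and 35.0% higher over all gene bodies. Over the 32 relatives the median levels were 48.4% in HepG2 and 95.5% in H1ES.

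The class B peptide receptors, the family of ADCYAP1R1, fell in 14 of 14 cases. The median levels were 37.6% in HepG2 and 95.1% in H1ES. GHRHR, inside the left flank of ADCYAP1R1, is among them, and CRHR2 lies beyond that flank on the same side. Such neighbours of a chosen gene may not be separate evidence about the family. PTH2R, a parathyroid hormone family receptor, was 22.7% and 20.2% in HepG2, against 94.4% and 93.0% in H1ES (edgeR adjusted p = 4.335e-89). CRHR1, the receptor of corticotropin-releasing hormone, was 28.5% and 36.3% in HepG2, against 95.5% and 94.5% in H1ES (edgeR adjusted p = 2.905e-99). GLP2R, a receptor of a glucagon-like peptide, was 33.5% and 31.0% in HepG2, against 97.5% and 99.0% in H1ES (edgeR adjusted p = 1.75e-89). VIPR2, a receptor that binds both VIP and PACAP, was 49.3% and 50.9% in HepG2, against 95.3% and 95.5% in H1ES (edgeR adjusted p = 5.62e-99). None of these 4 was as low as ADCYAP1R1. Relative to each library 11 of the 14 were lower and 3, VIPR1, GIPR and PTH1R, were higher. The genes of the ligands, ADCYAP1 and VIP, held too few tags.

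Both glycoprotein hormone receptors measured beside FSHR fell, also relative to each library. LHCGR, the receptor of luteinizing hormone, was 28.6% and 19.7% in HepG2, against 100% and 96.7% in H1ES (edgeR adjusted p = 9.79e-36). LHCGR lies on the left of FSHR on the same chromosome, outside the flank of 100 kb, and may not be separate evidence about the family. TSHR, the thyrotropin receptor, was 55.3% and 50.9% in HepG2, against 98.3% and 98.9% in H1ES (edgeR adjusted p = 2.03e-82). In level, LHCGR was thus close to FSHR, and TSHR was far above it. The genes of the hormone subunits held too few tags.

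Among the XK-related genes, 4 of 5 fell in HepG2, and the same number relative to each library. XKR7 was 17.2% and 18.1% in HepG2, against 89.0% and 86.7% in H1ES (edgeR adjusted p = 3.23e-101), close to the level of XKR5. XKR6 was 30.1% and 29.2% in HepG2, against 93.8% and 94.9% in H1ES (edgeR adjusted p = 1.49e-312). XKR4 was 26.3% and 32.1% in HepG2, against 94.7% and 96.7% in H1ES (edgeR adjusted p = 1.75e-238). XKR9 was 32.3% and 37.4% in HepG2, against 93.4% and 95.3% in H1ES (edgeR adjusted p = 3.81e-97). XKR8 was 92.3% and 85.0% in HepG2, against 97.4% and 95.8% in H1ES. Its adjusted p was 0.170 in edgeR and 0.0768 to 0.612 over 9 alternatives, on libraries with as few as 24 tags.

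Of 10 carbonic anhydrases measured, 7 fell and 3, CA2, CA11 and CA13, were not called in edgeR. CA10 was 20.1% and 23.9% in HepG2, against 97.9% and 96.7% in H1ES (edgeR adjusted p = 5.53e-310). CA4, anchored at the cell membrane, was 49.8% and 40.7% in HepG2, against 81.2% and 85.8% in H1ES (edgeR adjusted p = 3.69e-23). CA6, a secreted enzyme of saliva, was 59.9% and 76.7% in HepG2, against 95.4% and 96.5% in H1ES (edgeR adjusted p = 9.25e-19). CA12, a transmembrane enzyme, was 72.7% and 76.6% in HepG2, against 94.3% and 94.8% in H1ES (edgeR adjusted p = 3.52e-17). Only CA10 was near CA8, and relative to each library CA10 was the only one lower, with CA11 and CA13 higher and 7 not called.

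SASH1, an adaptor related to SAMSN1, was 83.6% and 84.2% in HepG2, against 95.5% and 96.7% in H1ES (edgeR adjusted p = 4.18e-38). It fell, yet stayed far above SAMSN1, and relative to each library it was higher in HepG2.

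**Figure D5:**
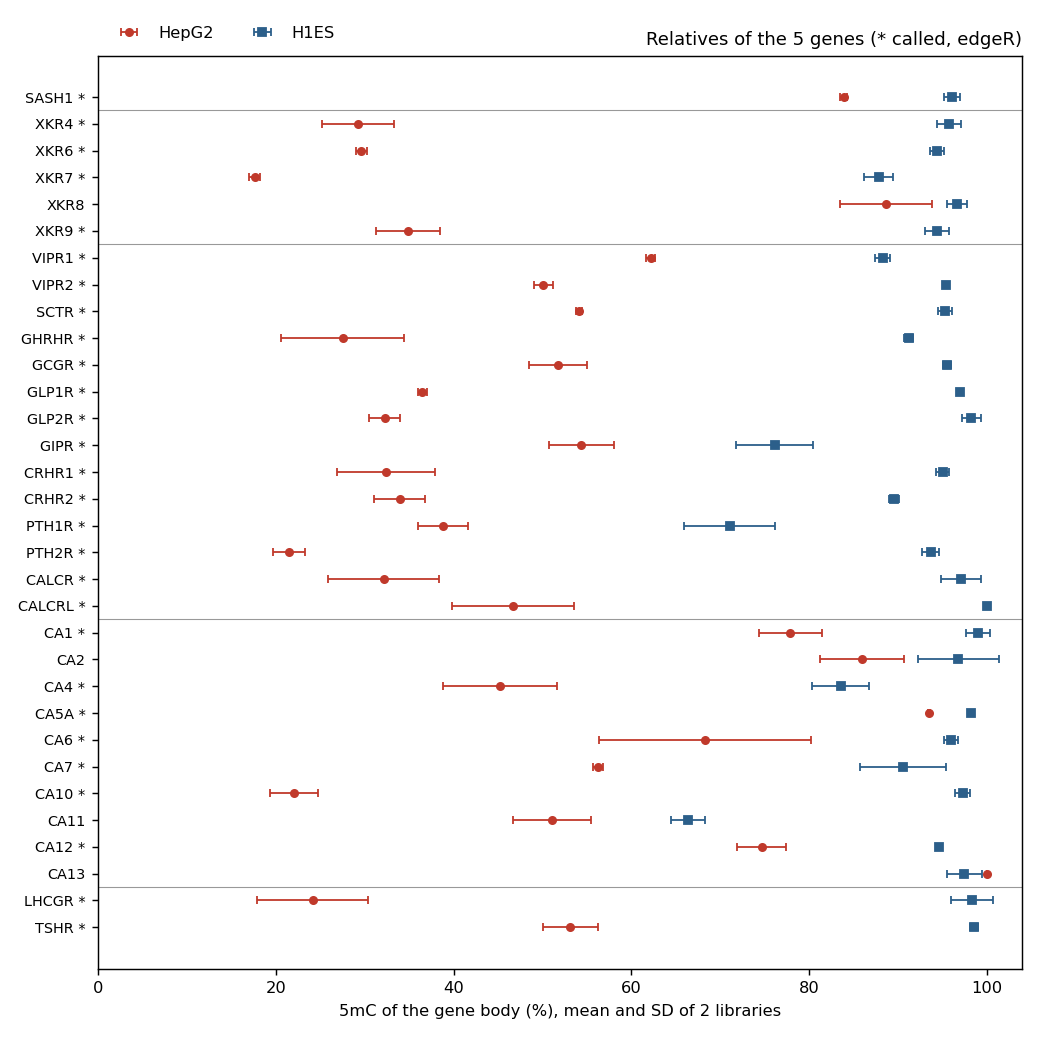
5mC level (percent) of the gene bodies of 32 relatives, grouped by family, as mean and SD of 2 libraries of 1000 cells in HepG2 (circles) and H1ES (squares), with an asterisk at the 28 called lower by edgeR. XKR7 at 17.6% and PTH2R at 21.5% are the lowest in HepG2, and SASH1, XKR8 and several carbonic anhydrases stay high.

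Genes were also ranked by how closely their levels matched each member over the body and both flanks in the 4 libraries of 1000 cells, among 13406 genes and by the mean absolute difference over 12 values. The closest to ADCYAP1R1 were C1orf94, at 1.90 points, and CRISPLD1, at 2.84 points. For FSHR they were KRT73 at 2.04 and ERMN at 2.15 points, and for CA8 ASXL3 at 2.46 and BMP10 at 2.55 points. For SAMSN1 they were PRAMEF20 at 2.71 and OR11A1 at 2.91 points. XKR5 had the least close matches, ZNF208 at 3.56 and RBFOX3 at 4.27 points. ZNF208 was 14.97% in the body in HepG2 and 97.9% in H1ES, with HepG2 flanks of 54.0% on the left and 42.8% on the right.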

How the data were processed

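Tags at CCGG sites were measured with DARESOME in 14 human libraries, 2 of 1000 cells and 5 single cells for each of HepG2 and H1ES. The 5 mouse libraries were not used. Bowtie2 2.3.4.1, cutadapt 1.5 and UMI-tools 0.5.4 are listed with build hg38, per the submitters' processing notes, and what each did, with which settings, is not given in the sources used here. Each deposited table has no header and lists, per site, 3 values in the unit fraction (unmethylated, 5mC and 5hmC shares, as assigned for this work) and the deposited counts of tags. Fraction times count was whole within 0.001414, which gave the tags of each kind. All 71749 CCGG in the RefSeq promoters of GRCh38.p14 were found in the tables.

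Tags were pooled over gene spans trimmed by 1 kb, flanks of 100 kb and windows of 1 kb around starts, for protein-coding autosomal genes of the RefSeq table. A test needed 20 tags in each library of 1000 cells. The odds of 5mC among all tags were fitted in R 4.3.3 with the quasi-likelihood test of edgeR 4.0.16 and a term for each library. Adjusted p-values (Benjamini-Hochberg) were read at 0.05, and only the main edgeR test was tried on simulated data. DESeq2 1.42.0, limma 3.58.1 on logit shares (pseudocount 0.5), other tag minima, relative odds, a replicate block and left-out libraries were alternatives. Intervals are exact Clopper-Pearson at 95%, and a limit for a share of 0 is 3 counts over the total. Overlap of intervals does not show that levels are equal. Python 3.11.15, NumPy 2.4.6, SciPy 1.17.1 and matplotlib 3.10.9 were used.

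The members and lists were chosen with earlier results of these data known. Named were the 5 genes, the 6 genes on each side of the smallest fall, protein-coding neighbours within 100 kb, up to 4 called relatives per list with the smallest p (lists of up to 5 measured genes in full), and the 2 closest genes per member. Sites, steps and uncalled or reversed relatives were named after their values were seen.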

Additional observations from a re-analysis of the deposited data

Results flagged for a closer look

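In single H1ES cells, the CA8 body was 83.3% 5mC in cell 5 (18 tags), the lowest of the 5 cells, and the next was 95.7%. This gap took 0.739 of the range of the 5 cells, past Dixon's critical value of 0.71. The value was flagged for standing apart from the other cells of its group. Of 12 groups of cells looked at, it was the only one, and chance flags about 1 group in 20. With so few tags its exact interval is 58.6% to 96.4%, which holds the next cell's value. The body of CA8 was 8.33%, 0%, 23.3%, 50% and 18.8% in HepG2 cells 1 to 5, all below it.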

How the results depend on the processing

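Of 133 alternative values of single genes, 98 moved by less than the spread between libraries, and 35 moved by more. Of the 133, 5 had the other sign, all at starts, with -1.24 (within 2 kb), -1.76 (without HepG2 replicate 2) and -20.8 (without H1ES replicate 1) for XKR5 in place of 0.74, -3.33 within 2 kb for ADCYAP1R1 in place of 20.3, and -0.45 within 2 kb for CA8 in place of 40.4 points. As a mean over the 5 genes, the body difference between HepG2 and H1ES of -82.2 points was -80.5 with sites of equal weight, -89.3 with sites of at least 5 tags in every library, -83.8 without 5hmC tags, -77.8 over whole spans and -82.6 to -81.9 with single libraries left out. The mean flank difference of -62.3 points was -60.1, -66.9 and -63.7 under the first 3 settings, -63.1 with flanks of 50 kb and -62.9 to -61.8 with libraries left out. The mean HepG2 gap between body and flanks of -18.3 points was -19.1 with sites of equal weight, -20.2 with sites of at least 5 tags (-0.26 for ADCYAP1R1 to -34.4 for XKR5) and -18.9 to -17.7 with libraries left out. The start difference of the pooled tags of 17.7 points was -6.30 within 2 kb and 9.17 to 28.1 with libraries left out, so starts have no stable direction at this depth. The pooled HepG2 single-cell level of 17.9% was 15.4% to 19.95% with cells left out. Over all gene bodies, 7378 lower and 335 higher calls became 3298 and 4701 relative to each library, and relatives called lower became 18 of 32, under a setting whose median log2 odds over all bodies was 0.87 in place of -1.94. Higher calls were 165 in DESeq2 and 216 to 292 with libraries left out, the lowest without HepG2 replicate 1. GIPR was not called lower in DESeq2 or without H1ES replicate 1. Replicate numbers did not pair the samples (correlation 0.0134 over 13438 bodies), and a replicate block gave 7228 lower and 301 higher calls and 28 relatives lower. Depth limits the starts, with 2 to 32 tags per line where any tag was found, and the shallow HepG2 cells 1, 2 and 4.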
